A study of Mus musculus with 6 samples.

Results

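The 9 genes described here encode transcription factors of the surface ectoderm, the epithelium that covers the embryo: Trp63, Tfap2a, Tfap2b, Tfap2c, Grhl1, Grhl2, Grhl3, Ovol1 and Ovol2. They were chosen by symbol from a table of 49452 genes, and each symbol matched 1 row. RNA had been measured in forelimb bud ectoderm of mouse embryos at E10.5, in 3 Sp8 null and 3 wild-type embryos, with the ectoderm of both forelimbs of 1 embryo in each library. Per the labels, the null embryos came from intercrosses of mice heterozygous for the Sp8-Cre-ERT2 allele and the wild-type embryos from crosses of C57BL/6 mice, so genotype and cross cannot be told apart, and both groups are labelled with the background strain C57BL6J. Sp8 encodes a zinc finger factor that this ectoderm expresses. Libraries carry the numbers of their embryos. Ectoderm was separated from the bud by trypsin and forceps, and no agent was given to either group.

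Trp63 encodes p63, a relative of p53 that the ectoderm needs to form a stratified epidermis and that limb buds need to grow out. The Tfap2 genes encode AP-2 factors, which act in early ectoderm, neural crest and limb buds and bind DNA as dimers. The Grhl genes encode Grainyhead-like factors, which control genes of epithelial junctions and closure of the neural tube and skin. The Ovol genes encode zinc finger repressors that hold down mesenchymal genes in epithelia.

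Values are FPKM, fragments scaled to transcript length and to the mapped fragments of the library, so levels may be compared between genes. A gene was tested if it reached 1 FPKM in at least 3 libraries, which 12133 genes and 7 of the 9 factors did. Grhl1 and Ovol2 were under this limit and are given as values. Fold changes are differences of log2(FPKM + 1), Sp8 null minus wild type, and a gene is called where limma's Benjamini-Hochberg adjusted p over all 12133 genes was under 0.05. Of all tested genes, 6.83% were called, 1.68% as higher and 5.15% as lower in Sp8 null. The share of calls that were higher was 24.6%, and it was 37.1% with upper-quartile scaling of the libraries. The median log2 fold change of all tested genes was -0.06.

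Sp8 itself was at 0.766, 0.460 and 1.14 FPKM in null libraries 1 to 3 and at 8.35, 10.97 and 13.5 FPKM in wild-type libraries 1 to 3, so each library followed its label. Relative depth ranged from 0.843 to 1.03 of that of wild-type embryo 1, and between 11835 and 12245 genes reached 1 FPKM in a library. All 12 surface ectoderm markers were tested, and their summed level was 669 to 885 FPKM in null and 787 to 859 FPKM in wild-type ectoderm. Krt17 and Epcam were called, both lower, which is 16.7% of these markers against 6.83% of all tested genes. Sp8 null embryo 2 stood apart: it had the lowest sum of surface ectoderm markers and the highest sum of limb mesenchyme markers, 246 FPKM, against 138 to 185 FPKM in the other libraries. In bulk ectoderm, fewer cells of a type and less RNA per cell cannot be told apart.

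In wild-type ectoderm Trp63 had the highest level of the 9 genes, followed by Tfap2b, Tfap2a, Grhl3, Grhl2, Tfap2c, Ovol1, Grhl1 and Ovol2. The mean level of Trp63 was 2.32-fold that of Tfap2b, and the mean level of Grhl2 was 6.34-fold that of Tfap2c. The ranges of Tfap2a and Grhl3 overlapped, as did those of Ovol1 and Grhl1 and those of Grhl1 and Ovol2. All other neighbours in this order had separate ranges. Of all tested genes, 2.76% had a higher mean over the 6 libraries than Trp63, 4.85% than Tfap2b, 9.64% than Tfap2a, 13.7% than Grhl3 and 21.4% than Grhl2. Tfap2c was at a low level, with 71.1% of tested genes above it, and Ovol1 was near the limit of testing, with 97.2% above it. In Sp8 null ectoderm the order of the first 7 genes was the same, but Grhl1 came last, and no neighbours' ranges overlapped.

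**Figure D1:**
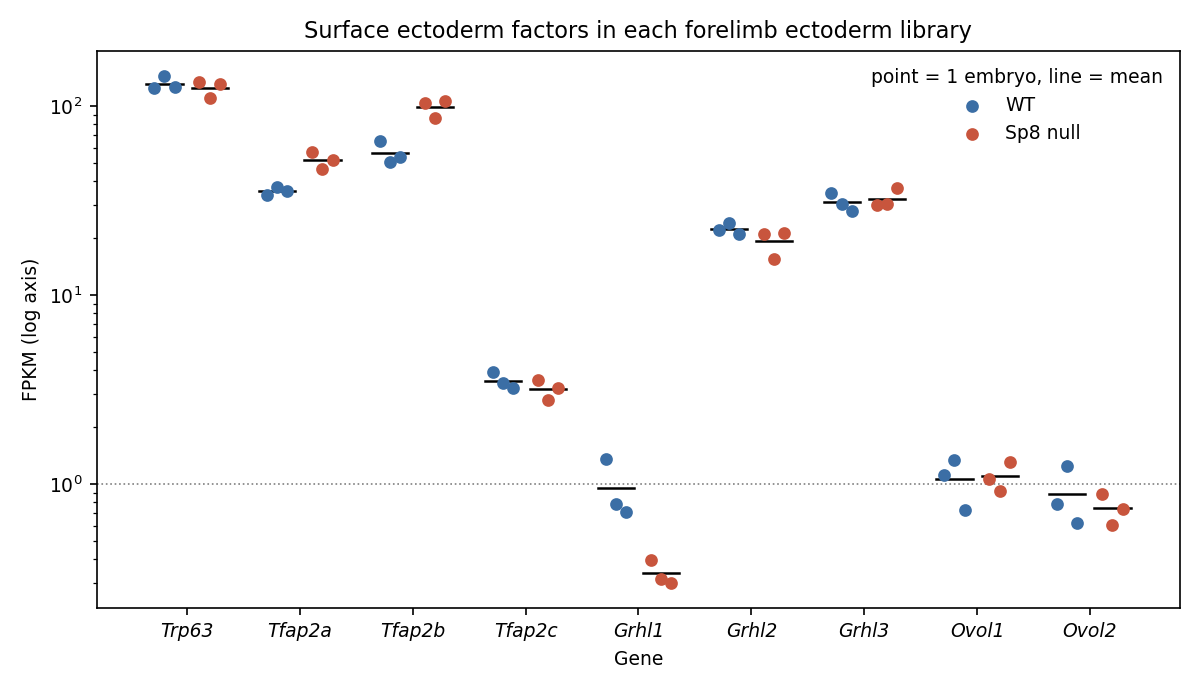
FPKM on a log axis for the 9 genes, with each point 1 embryo, blue for wild type and red for Sp8 null, each black line a group mean and the dotted line the limit of 1 FPKM. The groups are apart for Tfap2a, Tfap2b and Grhl1 and overlap for the other 6 genes.

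Among the 7 tested genes, 2 were called, Tfap2a and Tfap2b, both higher in Sp8 null. Of all tested genes, 6.83% were called, 1.68% as higher. The other 5 tested genes were not called. The ranges of the genotypes did not overlap for 2 of the 7 tested genes, Tfap2a and Tfap2b, and for 29.8% of all tested genes. They also did not overlap for Grhl1, which was not tested.

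Tfap2b (ENSMUSG00000025927; GRCm38, chromosome 1, 19208914 to 19238576, plus strand, protein-coding), an AP-2 factor that is also known for roles in neural crest, kidney and limb, was at 104, 86.5 and 106 FPKM in null libraries 1 to 3. In wild-type libraries 1 to 3 it was at 64.9, 50.7 and 53.8 FPKM. Every null library was above every wild-type library. The means were 98.6 ± 10.54 FPKM for null and 56.5 ± 7.48 FPKM for wild-type libraries (SD, n = 3 each), a ratio of 1.75. The log2 fold change was 0.80 (SE 0.12, 95% confidence interval 0.53 to 1.07, limma adjusted p = 0.00917). Among the 204 genes called as higher, 64 had a larger log2 fold change and 8 had a higher mean FPKM. With no filter on low values the adjusted p from limma was 0.0533, and over all alternatives it ranged from 0.00705 to 0.0533. For Tfap2b, the authors' deposited table listed a 1.75-fold rise, from 11797 to 20983 as normalized group means, with a p-value of 0. A p-value of 0 was listed for 2.58% of the 29716 genes with a mean above 0, and one under 0.05 for 31.3% of tested genes.

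Tfap2a (ENSMUSG00000021359; chromosome 13, 40715302 to 40738376, minus strand, protein-coding), an AP-2 factor that facial, neural tube and limb development require, was at 56.8, 46.4 and 51.6 FPKM in null libraries 1 to 3. It was at 33.8, 37.4 and 35.4 FPKM in wild-type libraries 1 to 3. The groups did not overlap, and the wild-type libraries lay close together. The means were 51.6 ± 5.24 FPKM for null and 35.5 ± 1.81 FPKM for wild-type libraries (SD, n = 3 each), a ratio of 1.45. The log2 fold change was 0.52 (SE 0.09, 95% confidence interval 0.32 to 0.73, limma adjusted p = 0.0163). The call was lost under some alternatives, among them without wild-type embryo 1 (limma adjusted p = 0.0582), without wild-type embryo 3 (0.0511) and with no filter on low values (0.0613), while over all alternatives the adjusted p from limma ranged from 0.0164 to 0.0756 and the log2 fold change from 0.45 to 0.60. For Tfap2a, the authors' deposited table listed a 1.47-fold rise with a p-value of 0, as for 2.58% of the 29716 genes with a mean above 0.

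Within libraries, the level of Tfap2b relative to that of Trp63 was 0.776, 0.784 and 0.814 in null libraries 1 to 3 and 0.525, 0.353 and 0.427 in wild-type libraries 1 to 3. The level of Tfap2a relative to Trp63 was 0.425, 0.420 and 0.397 in Sp8 null and 0.273, 0.260 and 0.280 in wild type. These ratios do not depend on the scaling between libraries, and neither overlapped between the genotypes. How many of all tested genes had ratios to Trp63 without overlap was not counted. The sample names begin with 4 for embryo 1 of each genotype and with 5 for the rest, and what the number stands for was not stated. Between the libraries of the number 4, 1 of each genotype, the log2 difference was 0.73 for Tfap2a and 0.67 for Tfap2b. Between those of the number 5, 2 of each genotype, it was 0.42 for Tfap2a and 0.86 for Tfap2b, and the ranges did not overlap for either gene. With 2 libraries against 2 a gap is weak evidence, and its share among all tested genes was not counted.

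Tfap2c (ENSMUSG00000028640; chromosome 2, 172549593 to 172558622, plus strand, protein-coding), an AP-2 factor best known from trophoblast, germ cells and early epidermis, was at 3.55, 2.80 and 3.24 FPKM in null libraries 1 to 3. It was at 3.93, 3.43 and 3.24 FPKM in wild-type libraries 1 to 3. The groups overlapped, and the log2 fold change was -0.11 (SE 0.11, 95% confidence interval -0.37 to 0.15, limma adjusted p = 0.597). The log2 ratio of Tfap2b to Tfap2c was 4.57 ± 0.07 in Sp8 null and 3.66 ± 0.10 in wild type (SD, n = 3 each), a difference of 0.91 with no overlap. The log2 ratio of Tfap2a to Tfap2c was 3.65 ± 0.02 in Sp8 null and 3.01 ± 0.17 in wild type, a difference of 0.63 with no overlap. The two-sided exact permutation p of each was 0.1, the smallest that 3 libraries against 3 allow, or 0.2 after Benjamini-Hochberg adjustment over the 4 pairs of tested paralogues. The log2 ratio of Tfap2a to Tfap2b overlapped between the genotypes (difference -0.27, exact permutation p = 0.3, adjusted 0.3). With 1 library left out, this difference ranged from -0.41 to -0.16.

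Summed over the 3 genes, Tfap2 transcripts were at 164, 136 and 160.4 FPKM in null libraries 1 to 3 and at 103, 91.5 and 92.4 FPKM in wild-type libraries 1 to 3. Tfap2b made up 63.2% to 65.8% of the sum in Sp8 null and 55.4% to 63.2% in wild type. Tfap2c made up 2.02% to 2.17% in Sp8 null and 3.50% to 3.83% in wild type. The other AP-2 genes were at or near 0. Tfap2d, which lies 42.6 kb before Tfap2b on the same strand, was listed at 0 FPKM in all 6 libraries, and Tfap2e was at most 0.0600 FPKM in any library.

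**Figure D2:**
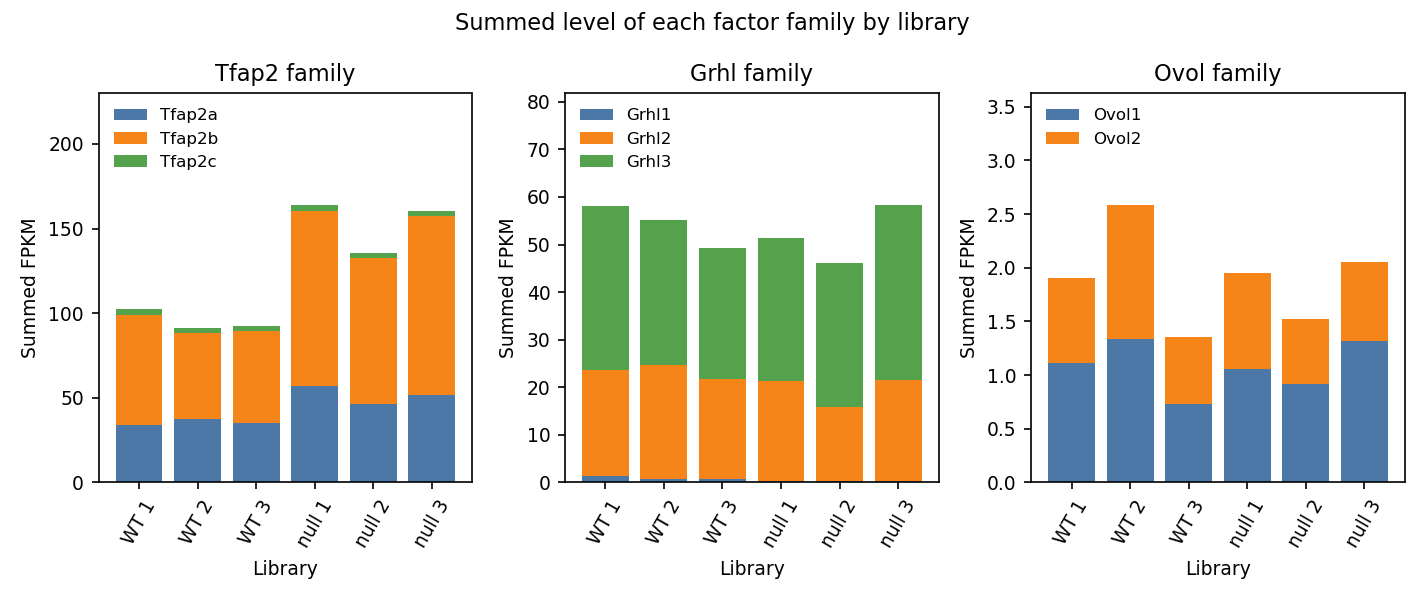
Summed FPKM of the Tfap2, Grhl and Ovol genes in each library, with 1 stacked bar for each embryo and 1 colour for each gene; the vertical scales differ between panels. The Tfap2 sum is 136 to 164 FPKM in null and 91.5 to 103 FPKM in wild-type ectoderm, whereas the Grhl and Ovol sums overlap between genotypes.

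Other cell types were read from marker lists. Of 13 limb mesenchyme markers, 9 were tested and none was called (median log2 fold change 0.23). Their sum was 161, 246 and 146 FPKM in null libraries 1 to 3 and 185, 138 and 151 FPKM in wild-type libraries 1 to 3. Meis1 and Meis2 gave most of it in 5 libraries but not in null library 2, which had the most Prrx1 (53.3 FPKM) and Shox2 (35.9 FPKM) of the 6. By genotype, 5 of the 9 tested markers had a log2 fold change above 0, and the lowest was that of Pdgfra (-1.15, limma adjusted p = 0.12). Tfap2a and Tfap2b were lowest, among the null libraries, in embryo 2, where the sum of mesenchyme markers was highest. Without Sp8 null embryo 2 the log2 fold changes were 0.60 for Tfap2a and 0.89 for Tfap2b, both called (limma adjusted p = 0.0164 and 0.0107). The part of mesenchyme in the Tfap2 difference was not tested. Of 6 neural crest and Schwann precursor markers, only Erbb3 was tested (log2 fold change 0.10, limma adjusted p = 0.572). Their sum was 11.6 to 13.2 FPKM in null and 9.82 to 11.1 FPKM in wild-type ectoderm, without overlap. Erbb3 gave most of it, at 8.78 to 10.4 FPKM in null and 8.34 to 9.42 FPKM in wild-type libraries, which overlapped. The part of this sum in the Tfap2 difference was not tested. Of the defining crest genes, Sox10 was at most 0.102 FPKM and Foxd3 at most 0.0109 FPKM, with Foxd3 at 0 in 5 libraries. Ets1 of the same list, under the limit of testing, was at 1.18, 3.35 and 0.97501 FPKM in null libraries 1 to 3. In wild-type libraries 1 to 3 it was at 0.885, 0.434 and 0.632 FPKM. It was the only gene of the list whose groups did not overlap, as the ranges of 29.8% of all tested genes did not. Its highest value was that of null library 2, where the limb mesenchyme sum was also highest. Of 6 erythroid markers 5 were tested and none was called, and their sum ranged from 61.9 to 161 FPKM in Sp8 null and from 11.6 to 422 FPKM in wild type. Endothelial markers, 1 of 7 tested, summed to 2.51 to 4.38 FPKM in null and 2.05 to 2.97 FPKM in wild-type ectoderm, and macrophage markers, 1 of 5 tested, to 1.52 to 2.98 FPKM and 1.46 to 2.26 FPKM. No member of these last lists was called.

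**Figure D3:**
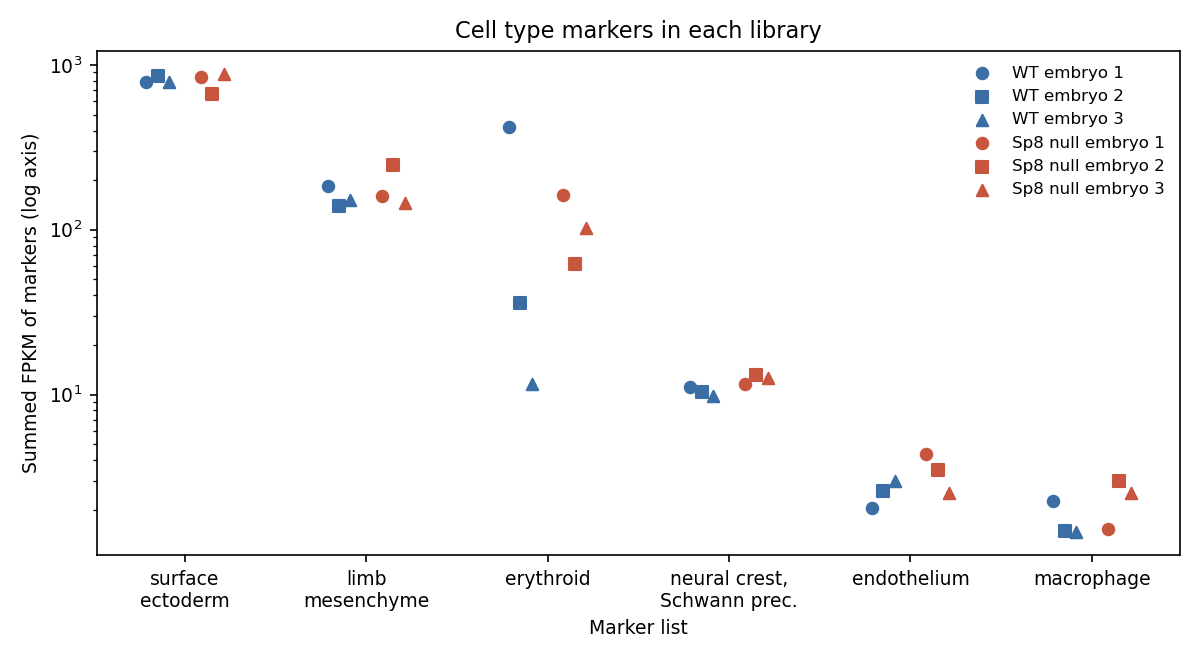
Summed FPKM of 6 marker lists on a log axis, with each point 1 embryo, blue for wild type and red for Sp8 null, and the shape giving the embryo number. Sp8 null embryo 2 is highest for limb mesenchyme (246 FPKM) and lowest for surface ectoderm (669 FPKM), and erythroid markers spread most, from 11.6 to 422 FPKM.

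Start site sequences are shown for Tfap2a and Tfap2b, because these genes were called, and for Grhl1, because its FPKM was lower in every null library. RefSeq sequences on GRCm38.p6 were given for 5 of the 9 genes, Tfap2a, Tfap2b, Grhl1, Grhl3 and Ovol2. Each sequence is the 250 bases before a start site, 5′ to 3′ on the strand of the gene, and capitals mark the GC box GGGCGG or its reverse complement CCGCCC, the element that Sp factors are known to bind. The window of Tfap2b is chr1:19211804-19212053 (plus strand) and lies in an intron of a longer Tfap2b transcript in GENCODE M21. That of Tfap2a is chr13:40734921-40735170 (minus strand), in an intron of a longer Tfap2a transcript and across an exon of the noncoding Gm26688 on the other strand. That of Grhl1 is chr12:24572037-24572286 (plus strand) and lies before the annotated gene except for its last 4 bases.
Tfap2b: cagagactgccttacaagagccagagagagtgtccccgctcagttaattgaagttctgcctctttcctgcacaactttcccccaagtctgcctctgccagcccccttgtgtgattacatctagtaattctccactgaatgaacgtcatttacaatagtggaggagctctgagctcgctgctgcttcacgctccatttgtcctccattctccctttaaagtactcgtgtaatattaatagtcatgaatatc
Tfap2a: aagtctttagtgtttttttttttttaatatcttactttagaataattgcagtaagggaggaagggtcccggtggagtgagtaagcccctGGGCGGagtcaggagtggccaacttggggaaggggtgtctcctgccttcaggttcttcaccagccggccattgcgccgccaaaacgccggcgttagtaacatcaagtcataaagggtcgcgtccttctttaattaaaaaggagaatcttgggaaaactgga
Grhl1: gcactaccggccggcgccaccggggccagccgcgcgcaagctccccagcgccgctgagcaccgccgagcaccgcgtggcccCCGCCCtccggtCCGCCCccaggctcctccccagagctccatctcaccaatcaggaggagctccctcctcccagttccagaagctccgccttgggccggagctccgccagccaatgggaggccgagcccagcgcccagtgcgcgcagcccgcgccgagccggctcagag

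The GC box was present once in the Tfap2a window, with its first base 161 bases before the start site, and 2 times in the Grhl1 window. It was not found in the Tfap2b window. Of 32851 windows of this length in the RefSeq table, 32.7% held a GC box on either strand. The second Tfap2a start site in that table, at position 40733795 of chromosome 13, had 1 GC box, and that of Grhl1, at position 24580719 of chromosome 12, had none. The Grhl3 window had 1 and the Ovol2 window none. The AP-2 motif GCCNNNGGC, a palindrome in its fixed letters that 13.7% of windows held, occurred once among the 7 windows of these genes, in that of Grhl1 shown above. The Grainyhead motif AACCGG, searched on both strands, was held by 5.62% of all windows and by none of the 7. The Ovo core TAACNG, searched on both strands, was held by 19.8% of windows and by the Tfap2b window alone among the 7, and the E-box CANNTG by 66.2% of windows and by those of Tfap2b, Grhl3 and the second Grhl1 start site. The GC content was 46.4% for Tfap2b, 47.6% for Tfap2a and 75.6% for Grhl1, against a median of 52.4% over all windows. These matches describe the letters of the windows and not binding.

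Trp63 (ENSMUSG00000022510; chromosome 16, 25683763 to 25892102, plus strand, protein-coding) was at 134, 110.4 and 129.8 FPKM in null libraries 1 to 3. It was at 124, 144 and 126 FPKM in wild-type libraries 1 to 3. The lowest value was that of Sp8 null embryo 2, and the groups overlapped. The log2 fold change was -0.08 (SE 0.10, 95% confidence interval -0.30 to 0.15, limma adjusted p = 0.682). The values are for the whole gene and do not separate the long and the amino-terminally truncated p63 transcripts. The p53 gene Trp53 was not called, at 109.7 ± 10.9 FPKM in null and 104 ± 2.77 FPKM in wild-type ectoderm (SD, n = 3 each). The third family gene, Trp73, was under the limit of testing, at 0.848 to 1.03 FPKM and 0.926 to 1.26 FPKM.

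Grhl3 (ENSMUSG00000037188; chromosome 4, 135541888 to 135573630, minus strand, protein-coding), which the neural tube and the skin barrier need, was at 29.99, 30.2 and 36.8 FPKM in null libraries 1 to 3. It was at 34.5, 30.5 and 27.6 FPKM in wild-type libraries 1 to 3. The groups overlapped, with a log2 fold change of 0.06 (SE 0.11, 95% confidence interval -0.20 to 0.32, limma adjusted p = 0.768).

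Grhl2 (ENSMUSG00000022286; chromosome 15, 37233036 to 37363569, plus strand, protein-coding), a regulator of Cdh1 and claudin genes, was at 21.0, 15.6 and 21.3 FPKM in null libraries 1 to 3. It was at 22.2, 23.99 and 21.0 FPKM in wild-type libraries 1 to 3. Sp8 null embryo 2 was lowest, and the other libraries lay close together. The log2 fold change was -0.22 (SE 0.13, 95% confidence interval -0.51 to 0.08, limma adjusted p = 0.345) and was -0.08 without Sp8 null embryo 2 (limma adjusted p = 0.689). Grhl2 had a fold change of -1.17 with a p-value of 0.0134 in the authors' deposited table, which listed p-values under 0.05 for 31.3% of the tested genes. Its exons overlap those of the noncoding Gm16136, at 26.1 to 32.1 FPKM, by 169 nt on the other strand, and the use of strand in counting was not stated. The log2 ratio of Grhl2 to Grhl3 overlapped between genotypes (difference -0.28, exact permutation p = 0.2, adjusted 0.267 over the 4 pairs).

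Grhl1 (ENSMUSG00000020656; chromosome 12, 24572283 to 24617391, plus strand, protein-coding), a factor of epidermal desmosomes and hair follicles, was at 0.397, 0.315 and 0.302 FPKM in null libraries 1 to 3. It was at 1.35, 0.784 and 0.715 FPKM in wild-type libraries 1 to 3. Each null library was below each wild-type library, but 1 library alone, wild-type embryo 1, reached the limit of 1 FPKM, so the gene was not tested in the fit above. The means were 0.338 ± 0.0513 FPKM in null and 0.950 ± 0.350 FPKM in wild-type ectoderm (SD, n = 3 each), which is 2.81-fold higher in wild type. The difference of mean log2(FPKM + 1) was -0.53, with a two-sided exact permutation p of 0.1, the smallest that this design allows. With no filter on low values Grhl1 was not called (limma adjusted p = 0.172), and without wild-type embryo 1 the difference was -0.39. The authors' deposited table gave Grhl1 a fold change of -2.17, means of 126 in wild type and 46.4 in Sp8 null and a p-value listed as 0, as for 2.58% of the 29716 genes with a mean above 0. Grhl1 made up 0.517% to 0.772% of the summed Grhl FPKM in Sp8 null and 1.42% to 2.33% in wild type.

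Ovol1 (ENSMUSG00000024922; chromosome 19, 5549136 to 5560646, minus strand, protein-coding), a repressor of the differentiating epidermis, was at 1.06, 0.918 and 1.32 FPKM in null libraries 1 to 3. It was at 1.12, 1.34 and 0.730 FPKM in wild-type libraries 1 to 3. Its log2 fold change was 0.03 (SE 0.15, 95% confidence interval -0.32 to 0.38, limma adjusted p = 0.923). Ovol2 (ENSMUSG00000037279; chromosome 2, 144305175 to 144332146, minus strand, protein-coding), its paralogue that acts against epithelial to mesenchymal transition, was at 0.891, 0.605 and 0.736 FPKM in null libraries 1 to 3. It was at 0.785, 1.25 and 0.625 FPKM in wild-type libraries 1 to 3. Both Ovol genes were near 1 FPKM, the groups overlapped, and no difference was detectable at these levels. Ovol3 was listed at 0 in 4 of 6 libraries and was at most 0.169 FPKM.

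**Figure D4:**
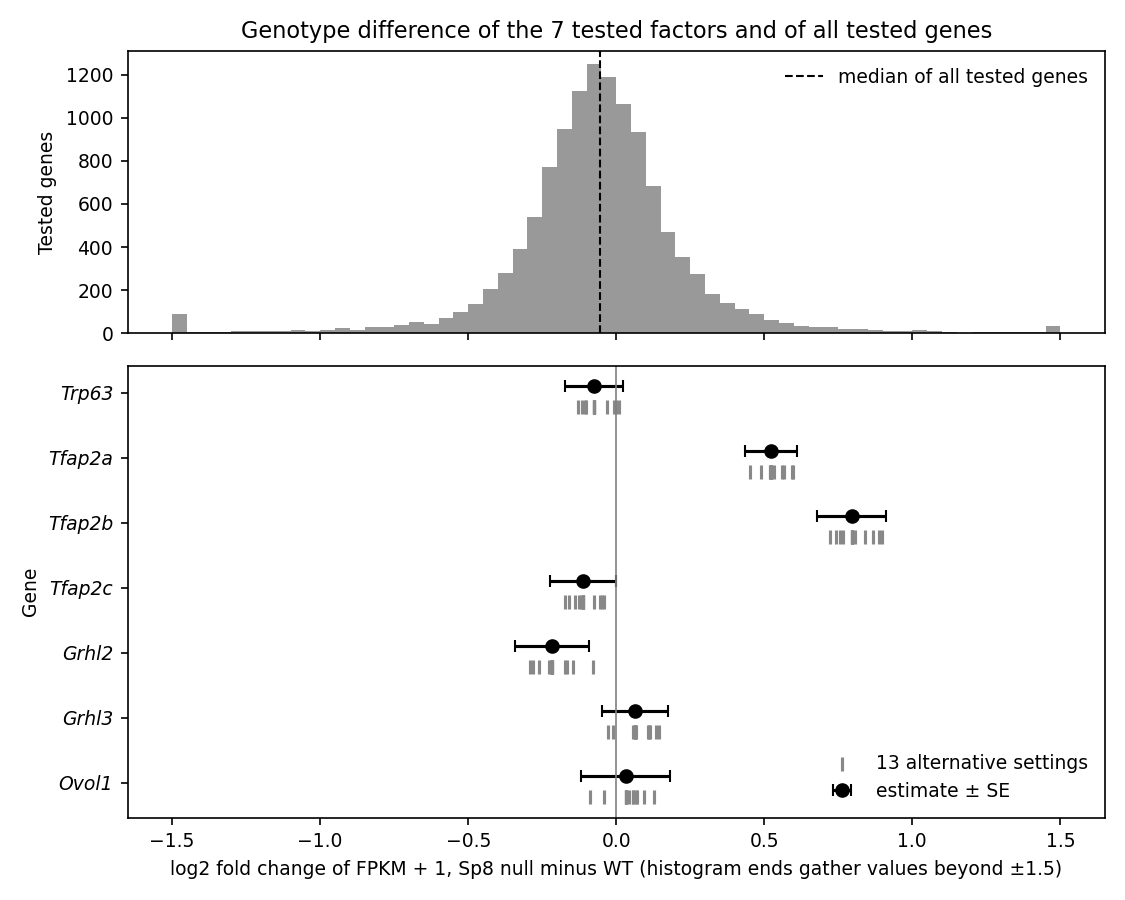
The upper panel counts all 12133 tested genes by log2 fold change of FPKM + 1 (Sp8 null minus wild type), with their median as a dashed line. The lower panel gives the estimate ± SE of the 7 tested factors as black points and the values under 13 alternatives as grey ticks. Tfap2a (0.52) and Tfap2b (0.80) lie above 0 in every alternative, and the 95% confidence intervals of the other 5, which are not drawn, include 0.

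Relatives that bind DNA through the same type of domain as the Grhl factors were not called: Tfcp2 at 2.97 ± 0.104 FPKM in null and 3.07 ± 0.409 FPKM in wild-type ectoderm, and Ubp1 at 23.0 ± 1.06 and 23.1 ± 2.04 FPKM (SD, n = 3 each). Tfcp2l1, under the limit of testing, was at 0.322 to 0.383 FPKM in null and 0.405 to 0.733 FPKM in wild-type ectoderm, without overlap.

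Genes linked to each family were read from lists of textbook targets and partners, which share some members with each other and with the marker lists. Of 20 symbols linked to p63 or to basal adhesion, 19 were in the table and all 19 were tested. Of these, 4 were called lower (21.1%) and none higher, against 5.15% called lower and 1.68% called higher among all tested genes. The median log2 fold change was -0.36 against -0.06 for all tested genes, and 3 of the list had a higher mean in Sp8 null. The called genes were Col17a1 (-0.93, limma adjusted p = 0.00346), the transmembrane collagen of hemidesmosomes, Itga6 (-0.66, 0.0163), the integrin chain of hemidesmosomes, and the homeobox genes Dlx3 (-0.78, 0.0054) and Dlx5 (-1.05, 0.0201). Col17a1 fell from 2.09 ± 0.178 to 0.616 ± 0.00903 FPKM and Itga6 from 95.6 ± 8.001 to 60.5 ± 8.61 FPKM (SD, n = 3 each). The basal keratin Krt5 was at 80.4 ± 6.63 FPKM in wild type and 65.9 ± 2.88 FPKM in Sp8 null without being called (log2 fold change -0.28, limma adjusted p = 0.08), while Trp63 overlapped between the genotypes.

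Of 14 junction and protease genes linked to the Grhl factors, all were tested, and 4 were called lower and 1 higher. The called share was 35.7%, against 6.83% of all tested genes. The median log2 fold change was -0.05, against -0.06 for all tested genes. St14, the membrane protease matriptase, fell to 11.1 ± 2.46 FPKM in null ectoderm, from a wild-type mean of 25.4 ± 2.19 FPKM (log2 fold change -1.14, limma adjusted p = 0.00597), and its Kunitz-type inhibitor Spint2 fell from 32.0 ± 1.53 to 25.3 ± 1.46 FPKM (-0.33, 0.0428). The adhesion gene Epcam fell from 110.3 ± 6.39 to 76.5 ± 10.9 FPKM (-0.53, 0.0313) and the claudin gene Cldn7 from 19.7 ± 0.696 to 12.998 ± 1.98 FPKM (-0.57, 0.0266). Another claudin gene, Cldn23, rose from 2.66 ± 0.442 to 4.97 ± 0.806 FPKM (0.71, 0.0299). Cdh1, which encodes E-cadherin, was at 81.9 ± 8.31 FPKM in null and 80.1 ± 1.63 FPKM in wild-type ectoderm (0.03, 0.883).

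Of 10 mesenchymal genes that epithelial factors hold down, 8 were tested, 1 was called lower and none higher, and the median log2 fold change was 0.36. The called share was 12.5%, against 6.83% of all tested genes. Cdh2, which encodes N-cadherin, was at 1.10, 3.68 and 0.946 FPKM in null libraries 1 to 3 and at 9.14, 7.06 and 9.59 FPKM in wild-type libraries 1 to 3 (log2 fold change -1.83, limma adjusted p = 0.0176). The highest null value was that of embryo 2, which also had the most Zeb1 (5.92 FPKM) and Twist1 (7.80 FPKM) of the 6 libraries. Of 10 partners and repressors of AP-2 factors, 9 were tested and none was called, with a median of -0.10. The AP-2 repressor Kctd15 was at 15.7 ± 1.501 FPKM in null and 16.9 ± 1.30 FPKM in wild-type ectoderm (SD, n = 3 each). Of 15 periderm and stratification genes, 12 were tested, and Arhgap29 rose (log2 fold change 0.55, limma adjusted p = 0.00981) while Krt17 (-0.54, 0.0298) and Cldn1 (-0.40, 0.0451) fell. The called share of this list was 25%, against 6.83% of all tested genes. The median of this list, which holds Grhl3 and Ovol1 themselves, was -0.05.

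The genes whose levels were most like those of the factors were found by Pearson's r of log2(FPKM + 1) over the 6 libraries, among the 6982 protein-coding genes whose mean reached 5 FPKM. For Tfap2b they were Limk2 (r = 0.996), Cit (0.991) and Atrnl1 (0.989), and for Tfap2a they were Mxd4 (0.993), Cops2 (0.986) and Itga9 (0.986). For Trp63 they were Ube2f (0.995), Rhod (0.988) and 4933415A04Rik (0.981), for Grhl3 Mapk7 (0.994), Senp5 (0.993) and Elmo2 (0.987), and for Ovol1 Mrps21 (0.989), E430025E21Rik (0.988) and Lage3 (0.981). Limk2, Mxd4, Cops2 and Itga9 were also called as higher, with log2 fold changes of 0.44, 0.57, 0.30 and 0.62. Among the factors themselves, r was 0.908 between Tfap2a and Tfap2b and 0.886 between Trp63 and Grhl2, which were both lowest in Sp8 null embryo 2. It was -0.02 between Trp63 and Tfap2a and -0.27 between Trp63 and Tfap2b. With 6 libraries that differ in genotype and in tissue makeup, these coefficients only describe the libraries.

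Exons of other genes overlap some of the factors, and the counting may not have used strand. The noncoding Gm26688 overlaps 380 nt of the 4903 nt of Tfap2a exons and was at 1.89, 3.42 and 4.04 FPKM in null libraries 1 to 3 and at 2.08, 1.99 and 1.93 FPKM in wild-type libraries 1 to 3, far under Tfap2a in each. Gm47061 (265 nt) and Gm47067 (73 nt) also overlap Tfap2a exons on the other strand. No values were listed for them, so their levels are unknown and their effect on Tfap2a was not tested. The Ovol1 and Ovol2 exons overlap those of Gm31166 and 1700108N11Rik, which were at most 0.109 and 0.0969 FPKM. Ovol1 exons are also overlapped by AC126029.1 (76 nt), again without listed values. No exon overlap was annotated for Tfap2b, Tfap2c, Trp63, Grhl1 or Grhl3.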

How the data were processed

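The deposited table held FPKM for 49452 genes in each of 6 libraries, computed by the authors, with Ensembl build 87 gene models per the file headers. The submitters' processing notes name GRCm38, TopHat2, Cufflinks, SAMtools, FastQC and DESeq2 without roles, and the use of strand was not given in the sources used here. The authors' deposited group means (a normalized signal), signed fold change (a score) and p-value were only copied, and their control was taken as wild type because Sp8 was higher there. FPKM + 1 on the log2 scale was tested in R 4.3.3 by limma 3.58.1, with genotype as the only term, a mean-variance trend and two-sided p-values adjusted by Benjamini-Hochberg over all tested genes. The fit was checked on simulated data. Reads per library were unknown, and relative depth came from the commonest ratio of FPKM values under 0.3 of the same gene. The members and the lists were chosen with earlier results of these data known. Named genes were the 9 factors, Sp8, 8 relatives, up to 6 called members of each list by smallest p, and the 3 genes most like the called factors and the highest of each family. Other genes named, Krt5, Cdh1, Kctd15, Zeb1, Twist1, Meis1, Meis2, Prrx1, Shox2, Pdgfra, Erbb3, Sox10, Foxd3, Ets1 and the overlapping noncoding genes, were chosen after their values were seen. Exons and coordinates are from GENCODE M21 (GRCm38), matched by identifier. Alternatives were a pseudocount of 0.1, no filter, 2 scalings, no trend, 2 covariates and leaving out each library.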

Additional observations from a re-analysis of the deposited data

How the results depend on the processing

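Of 212 alternative values for 18 results, 185 were taken as the same as the main value. Outside the count of called genes, this meant the same sign and the same side of the threshold. Where no test was made, it meant a move smaller than the replicate spread. Counts of called genes taken as the same ranged from 642 to 863. The 829 called genes became 342 when low values were not filtered, 545 with a covariate for the first number of the sample names and 328 with the replicate block. The count was 394, 408 and 642 without Sp8 null embryos 1, 2 and 3 in turn and 445, 316 and 510 without wild-type embryos 1, 2 and 3. Embryo numbers did not pair the libraries: deviations from the group mean correlated at -0.16, -0.14 and -0.07 between libraries of the same number. With the replicate block Tfap2a was not called (0.52, limma adjusted p = 0.0756) and Tfap2b was (0.80, 0.0139). Tfap2a kept 0.52 and Tfap2b 0.80 with no filter, where neither was called (limma adjusted p = 0.0613 and 0.0533). With 1 library left out, the log2 fold change ranged from 0.45 to 0.60 for Tfap2a, from 0.72 to 0.90 for Tfap2b, from -0.128 to 0.00918 for Trp63, from -0.0295 to 0.144 for Grhl3 and from -0.0891 to 0.128 for Ovol1. The difference of Grhl1, which the filter left untested, was -1.22 with a pseudocount of 0.1, which gives low values more weight. That of Ovol2 ranged from -0.204 to 0.0308 with 1 library left out. Under median-of-ratios and upper-quartile scaling Tfcp2 turned to 0.00113 and 0.0228 and Ubp1 to 0.0378 and 0.0657. Without 1 library they ranged from -0.0891 to 0.0469 and from -0.067 to 0.0555. The cause of these shifts was not tested.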
